A study of Mus musculus with 6 samples.

Results

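Genes that encode colony-stimulating and haematopoietic growth factors, Csf1, Csf2, Csf3, Il34, Kitl and Flt3l, were followed in primary mouse renal fibroblasts cultured with or without T helper 17 (Th17) cells. They were chosen by name, with earlier results of these data known, as the rows of the deposited gene table that carry these symbols. They make up 6 of its 34745 rows. All 6 passed the filter on low counts and were among the 13088 genes tested. Sequenced RNA came from fibroblasts grown alone (3 libraries) and from fibroblasts that shared medium for 24 h with Th17 cells held in an insert of 0.4 μm pore size (3 libraries). All fibroblasts were wild type, grown out of enzyme-digested mouse kidney in a complete fibroblast medium and allowed to attach for 6 h, and only the cells under the insert were collected. The strain and age of the kidney donors were not stated for these cultures. The Th17 cells had been induced from splenic CD4+ T cells with interleukin-1β, interleukin-6, interleukin-23 and an antibody to interferon-γ. The sources used here do not say whether the 3 libraries of a group are separate cultures or animals. Errors and p-values therefore measure the spread between these libraries, which may be technical.

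These factors instruct blood-forming progenitors and their descendants. Csf1 (M-CSF) and Il34 are the ligands of the receptor Csf1r and maintain macrophages, Csf2 (GM-CSF) acts on macrophages, dendritic cells and granulocytes, and Csf3 (G-CSF) drives neutrophil production. Kitl (stem cell factor) and Flt3l act through the receptor kinases Kit and Flt3 on stem and progenitor cells, mast cells and dendritic cell precursors. Stromal cells such as fibroblasts are a known source of several of them, activated T cells are a known source of Csf2, and transcripts of Csf2 and Csf3 are known to be short-lived because of AU-rich elements in their 3′ untranslated regions (UTRs).

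To show where the members differ in that feature, the 3′ UTR of the longest coding transcript of each member (GENCODE M21, build GRCm38) was searched on its own strand for the pentamer ATTTA, written as DNA, with overlapping matches counted. The 30 bases that hold most pentamers are given for the 4 members with at least 2 in such a stretch, 5′ to 3′ on the strand of the gene, with every pentamer in capitals.
Csf2, chr11:54247324-54247353, minus strand: aaatATTTATTTATTTATTTATTTAttttt
Csf3, chr11:98702988-98703017, plus strand: gtttATTTAtctctATTTAatATTTAtgca
Csf1, chr3:107741102-107741131, minus strand: aaggtcATTTAaatatctATTTAaaaaata
Kitl, chr10:100097942-100097971, plus strand: ttgtgacttgATTTATTTAtctggtagttt

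Csf2 held 9 pentamers in a 3′ UTR of 317 bases, which is 28.4 per kb, with 5 of them overlapping in the stretch shown. Among 11469 tested genes with a 3′ UTR of at least 100 bases, 0.209% had as many in 30 bases, and the median density was 1.41 per kb. Csf3 held 6 pentamers in 669 bases, or 8.97 per kb, and 2.55% of genes had as many as its 3 in 30 bases. Csf1 held 4 in 2111 bases (1.89 per kb) and Kitl held 14 in 4435 bases (3.16 per kb), and 21.2% of genes had as many as their 2 in 30 bases. Il34 held 1 pentamer and Flt3l none, where 73.1% of genes held at least 1. The longer heptamer TATTTAT, which contains the pentamer, occurred 9 times in Csf2, 3 times in Kitl, 2 times in Csf3 and once in Csf1, and in 32.4% of all these genes. These are matches of letters in annotated transcripts, and which 3′ ends the fibroblasts used was not measured.

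**Figure D1:**
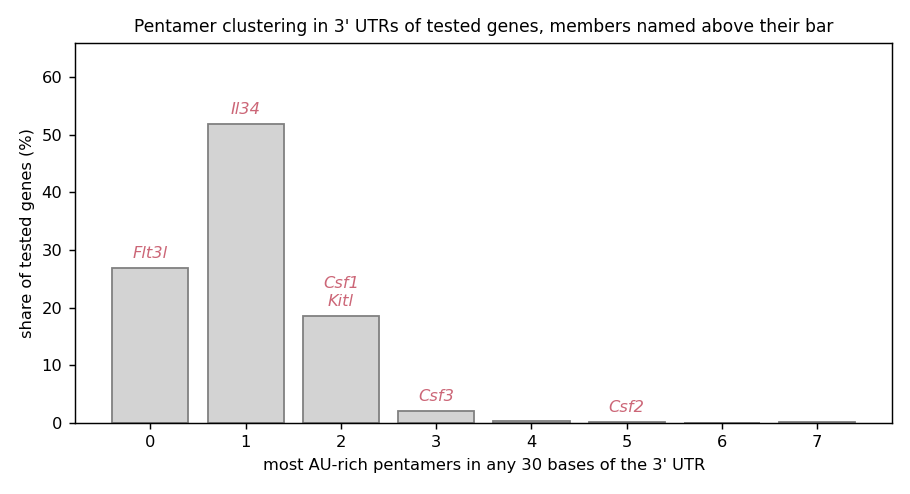
The bars show, for each number of ATTTA pentamers found in the richest 30 bases of the 3′ UTR (horizontal axis), the share of 11469 tested genes in percent (vertical axis). The name of each member stands above its bar, with Flt3l at 0, Il34 at 1, Csf1 and Kitl at 2, Csf3 at 3 and Csf2 at 5.

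Upstream sequence was examined in the 250 bases before the RefSeq start (GRCm38.p6), which were at hand for 4 members, Csf1, Csf2, Kitl and Flt3l. The window of Csf1 is given because it was the only one of the 4 with a match to the NF-κB consensus, a motif found on either strand in 3.90% of 32851 such windows. It is written 5′ to 3′ on the strand of the gene, and the capitals, which begin 154 bases before the start, mark the match.
Csf1, chr3:107760470-107760719, minus strand: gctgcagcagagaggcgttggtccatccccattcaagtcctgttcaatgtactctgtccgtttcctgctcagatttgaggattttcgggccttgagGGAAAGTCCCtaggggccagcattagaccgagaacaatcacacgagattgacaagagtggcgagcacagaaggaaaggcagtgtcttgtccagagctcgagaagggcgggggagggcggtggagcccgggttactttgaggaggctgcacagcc

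No window of these 4 held the AP-1 motif TGANTCA, which 6.75% of all windows held. Csf2 alone held the C/EBP motif TTNNGNAA (36.8% of all windows), and Kitl alone held TATAAA (12.4% of all windows), 25 bases before its start. The Csf2 window (54249900 to 54250149) lies wholly upstream of the start that the deposited table gives for that gene (54249667). The bases between them were not searched, so the sequence next to that start was not examined for any motif. The Kitl window (100015571 to 100015820) runs past the start in the deposited table (100015630), so its TATAAA lies within the gene as listed there. Both strands were searched, N stands for any base, and no match says only that these letters are not in this window.

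Coculture with Th17 cells was associated with higher levels of Csf1, Csf2, Csf3 and Kitl transcripts and a lower level of Flt3l, whereas Il34 was higher by a call that did not hold under most alternatives. Csf2 showed the largest change of the 6, a 4.70-fold increase (95% confidence interval 3.13 to 7.06), and Csf1, by far the most abundant, rose 2.01-fold (1.83 to 2.21). Genes were tested with the quasi-likelihood test of edgeR, and p-values were adjusted by Benjamini-Hochberg over all 13088 of them. The limits, taken from the study's methods, were 0.05 for the adjusted p and more than 2-fold for the change, and 4 of the 6 were higher and none lower past both. Among all genes tested, 3.87% were higher and 7.78% lower past those limits, 11.6% in all. With the adjusted p alone, 5 members were higher and 1 lower, beside 17.1% higher and 20.0% lower of all genes, 37.1% in all. Levels are given as CPM, the count scaled to library size with TMM factors, or, to compare genes, as FPKM, which is also scaled to gene length. The CPM of the groups did not overlap for any of the 6, as was so for 50.4% of the genes tested. The median log2 fold change of the members was 1.19, and that of all genes tested was 0.00. Because members and lists were chosen with earlier results of these data known, such comparisons with all genes are descriptions and not tests.

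**Figure D2:**
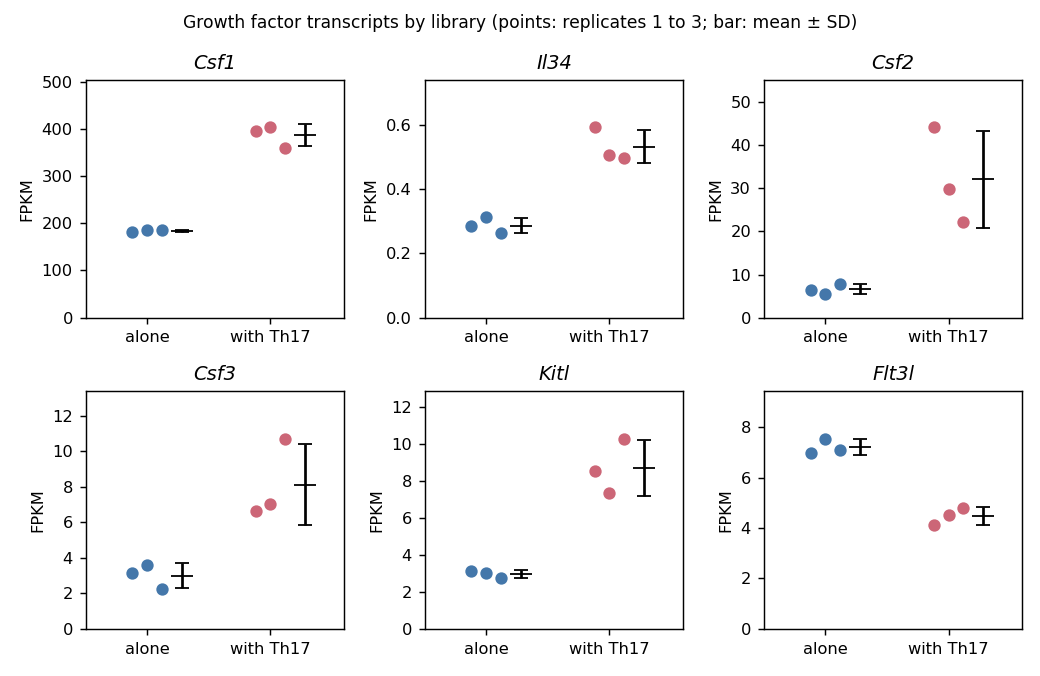
Each panel plots the FPKM of 1 gene (vertical axis, starting at 0) in the 3 libraries of fibroblasts alone (blue) and the 3 libraries cocultured with Th17 cells (red), with the mean and SD as a black bar. The groups are apart in every panel, Flt3l is the only member that is lower with Th17 cells, and the cocultured Csf2 libraries spread from 22.1 to 44.2 FPKM.

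The ligands of Csf1r were at very different levels. Csf1 (ENSMUSG00000014599, GRCm38 chromosome 3, 107741048 to 107760469, minus strand, protein-coding) had 19100, 19070 and 17700 counts in replicates 1 to 3 of fibroblasts alone, and 41358, 40147 and 36488 counts in the cocultured replicates. The lone libraries lay close together and every cocultured library was about double them, with cocultured replicate 3 the lowest of its group. In CPM, Csf1 increased from 1496 ± 12.1 to 3004 ± 199 (± SD, n = 3 per group; log2 change 1.01 ± 0.060 SE, adjusted p = 1.98e-06 by edgeR). The fold change stood at the 2-fold limit itself, and it was just under that limit without lone replicate 1 (log2 0.996), 1.98-fold without cocultured replicate 1 and 1.96-fold without cocultured replicate 2, with the adjusted p still below 0.05 each time. Per length, Csf1 stood at 184 ± 1.82 FPKM in fibroblasts alone (SD, n = 3), the 187th highest level of all rows, and at 386 ± 23.4 FPKM after coculture (SD, n = 3), the 77th highest.

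Il34, the second ligand of Csf1r, was near the lower end of what the libraries could measure. Il34 (ENSMUSG00000031750, chromosome 8, 110741829 to 110805924, minus strand, protein-coding) had 13, 14 and 11 counts alone and 27, 22 and 22 counts with Th17 cells. Each cocultured count was above each lone count, although all were small, and 3 counts, taken here as the floor of a library, correspond to between 0.223 and 0.254 CPM. Its level was 1.02 ± 0.0882 CPM alone and 1.80 ± 0.179 CPM in coculture (± SD, n = 3 per group; log2 change 0.82 ± 0.270 SE, adjusted p = 0.0398 by edgeR). This call was lost with DESeq2 (adjusted p = 0.187), without a filter on low counts (adjusted p = 0.0774) and when any 1 library was left out (adjusted p from 0.0555 to 0.130). The gene overlaps 2 genes on the opposite strand, Gm15894 and Gm15895, both listed with 0 counts in every library.

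Because both ligands bind Csf1r, their FPKM values, which are per length, were set side by side within each library. The ratio of Csf1 to Il34 was 640.0, 593 and 701 in fibroblasts alone and 667, 795 and 723 with Th17 cells. The lone and cocultured ratios overlapped when taken without a pseudocount, with means of 645 ± 53.9 and 728 ± 64.0 (SD, n = 3 each). On the scale of log2(FPKM + 0.1) the ratio was 8.90 ± 0.09 alone and 9.26 ± 0.11 in coculture (SD, n = 3 each), a difference of 0.36 (exact two-sided permutation test over libraries, p = 0.1, the smallest p that 3 against 3 allows). The pseudocount of 0.1 FPKM is not small beside Il34, at 0.286 FPKM alone and 0.532 FPKM in coculture. It lowers the lone ratios more than the cocultured ones, and the groups were apart only with a pseudocount. This difference and its p therefore do not show a shift in the ratio. Csf1 was the predominant Csf1r ligand transcript in all 6 libraries.

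Csf2 and Csf3, the granulocyte-macrophage and granulocyte factors, both rose and differed in which cocultured library was highest. Csf2 (ENSMUSG00000018916, chromosome 11, 54247271 to 54249667, minus strand, protein-coding) had 67, 57 and 75 counts alone and 465, 300 and 226 counts with Th17 cells. The lowest cocultured library, replicate 3, was still above every lone library, and the highest, replicate 1, had more than double the lowest. Csf2 increased from 5.35 ± 0.929 to 25.1 ± 8.80 CPM (± SD, n = 3 per group; log2 change 2.23 ± 0.260 SE, adjusted p = 0.000160 by edgeR). Csf2 overlaps the opposite-strand gene Gm12223, which was listed with 0 counts in every library. Csf3 (ENSMUSG00000038067, chromosome 11, 98701263 to 98703629, plus strand, protein-coding) had 59, 66 and 38 counts alone and 123, 124 and 194 counts with Th17 cells. Here cocultured replicate 3 was the highest and lone replicate 3 the lowest of its group. Csf3 increased from 4.34 ± 1.02 to 11.2 ± 3.09 CPM, a 2.58-fold change (95% confidence interval 1.76 to 3.76; ± SD, n = 3 per group; log2 change 1.37 ± 0.241 SE, adjusted p = 0.00198 by edgeR). These 2 members, which held the most pentamers per kb although Kitl held more in all, also had the widest spread between libraries. The coefficient of variation of CPM in coculture was 35.0% for Csf2 and 27.5% for Csf3, and between 6.64% and 16.6% for the other 4. A link between pentamers and this spread was not tested.

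As Th17 cells can make Csf2 themselves, T cell transcripts were examined in the collected fibroblasts. Of 11 T cell markers, Cd2, Cd3d, Cd8a, Il17a and Il17f had 0 counts in all 6 libraries, and 8 had 3 counts or fewer in every library. Cd3e had 6 counts in cocultured replicate 3 and 0 in the other cocultured libraries. The summed level of the list was 5.83 to 8.70 CPM alone and 4.80 to 5.58 CPM in coculture, nearly all of it from Trac and Lck. Lck fell with coculture (log2 change −1.04 ± 0.236 SE, adjusted p = 0.00755 by edgeR), and Trac had a log2 fold change of 0.03 (adjusted p = 0.948). The part of T cell RNA in the Csf2 values was not tested.

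Kitl and Flt3l, ligands of the related receptor kinases Kit and Flt3, moved in opposite directions. Kitl (ENSMUSG00000019966, chromosome 10, 100015630 to 100100413, plus strand, protein-coding) had 274, 262 and 220 counts alone and 746, 611 and 877 counts with Th17 cells. All cocultured libraries were above double the highest lone library. Kitl increased from 20.2 ± 1.4 to 56.8 ± 9.43 CPM, a 2.81-fold change (95% confidence interval 2.30 to 3.43; ± SD, n = 3 per group; log2 change 1.49 ± 0.127 SE, adjusted p = 2.13e-05 by edgeR). The table's row for Flt3l (ENSMUSG00000089989, chromosome 7, 45131189 to 45136432, minus strand) had 99, 105 and 92 counts alone and 58, 61 and 66 counts with Th17 cells. Every cocultured library was below every lone library. Flt3l fell from 7.93 ± 0.329 to 4.71 ± 0.362 CPM, 1.68-fold (± SD, n = 3 per group; log2 change −0.75 ± 0.146 SE, adjusted p = 0.00336 by edgeR), which is past the adjusted p and within the 2-fold limit. In GENCODE M21 the identifier of this row belongs to Gm45713, a gene from 45125922 to 45136231 that spans both Rpl13a and most of Flt3l, and Flt3l itself is ENSMUSG00000110206, from 45129788 to 45136432. The position in the table ends where Flt3l ends and lies within it, and how fragments were divided there was not stated, so the Flt3l counts are uncertain.

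**Figure D3:**
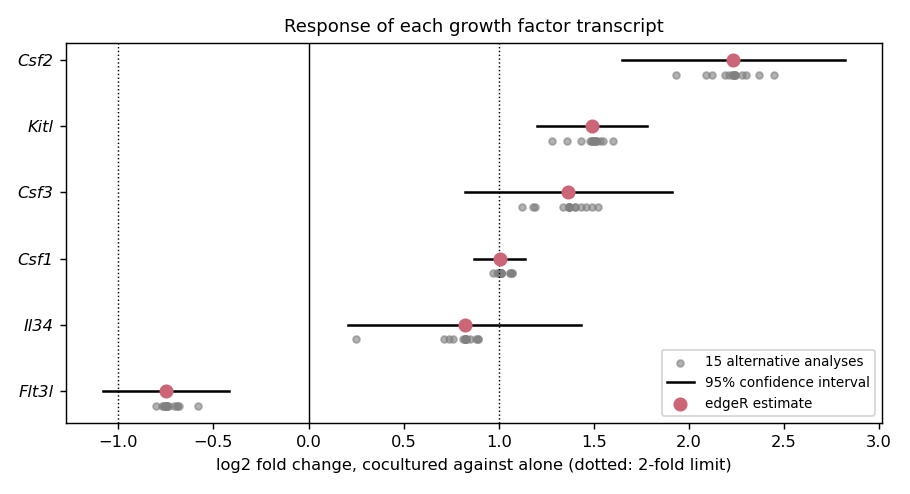
Each red point is the log2 fold change (horizontal axis, cocultured against alone) of 1 member by edgeR, with its 95% confidence interval as a black line, and the grey points below it are 15 alternative analyses. Csf2, Kitl and Csf3 lie beyond the dotted 2-fold limit, Csf1 lies on it with the narrowest interval, Il34 has 1 alternative at 0.25 (limma on log2(FPKM + 1)), and Flt3l stays between −0.80 and −0.58.

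The order of the levels changed with coculture below the first place. In fibroblasts alone the order by mean FPKM was Csf1 (184), Flt3l (7.21), Csf2 (6.54), Csf3 (3.0), Kitl (2.97) and Il34 (0.286). The libraries of Flt3l and Csf2 overlapped, as did those of Csf3 and Kitl, so neither pair could be ordered beyond its spread. With Th17 cells the order was Csf1 (386), Csf2 (32.1), Kitl (8.73), Csf3 (8.12), Flt3l (4.48) and Il34 (0.532), and only Kitl and Csf3 overlapped among neighbours. By mean FPKM Flt3l, whose counts are uncertain, thus moved from the second place, not separated from Csf2, to the fifth. Csf1 made up 90.2% of the summed FPKM of the 6 members alone and 87.8% in coculture, while Csf2 went from 3.21% (2.68% to 3.8% across libraries) to 7.22% (5.43% to 9.62%). The summed FPKM of the 5 members other than Csf1 was 20.0 ± 0.123 alone and 53.9 ± 8.76 in coculture (SD, n = 3 each).

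Of the receptors for these ligands, Csf1r and the subunits for Csf2 were at low levels in the cultures and were lower with Th17 cells. Of 9 receptors and binding partners, 6 were tested, and all 6 were lower by the adjusted p (20.0% of all genes). Of these, 4 were also past the 2-fold limit (7.78% of all genes). Csf1r had 77, 81 and 65 counts alone and 30, 19 and 19 with Th17 cells (log2 change −1.78 ± 0.221 SE, adjusted p = 0.000241 by edgeR). Csf2ra, the binding subunit for Csf2, had a log2 fold change of −0.77 (± 0.163 SE, adjusted p = 0.00514 by edgeR). Csf2rb, its signalling subunit, had 16, 17 and 21 counts alone and 2, 2 and 0 in coculture, at least 6.17-fold lower against a floor of 3 counts per library. The related Csf2rb2 had 16, 13 and 16 counts alone and none in coculture, at least 5.12-fold lower, and because these genes are close relatives, fragments shared between them make both counts uncertain. Csf3r had 0 counts in all 6 libraries, Kit had 4, 4 and 3 counts alone and 0 in coculture, and Flt3 had 4 counts, all in cocultured replicate 1. Transcripts of the main receptors for Csf3, Kitl and Flt3l were therefore at or near the floor in these cells.

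Il34 has further binding partners besides Csf1r, and these transcripts were also lower. Ptprz1, a receptor phosphatase, fell from 30.4 ± 1.5 to 2.04 ± 0.874 CPM (± SD, n = 3 per group; log2 change −3.89 ± 0.233 SE, adjusted p = 2.02e-06 by edgeR). Sdc1, the core protein of syndecan-1, fell by 0.54 on the log2 scale (± 0.077 SE, adjusted p = 0.000535 by edgeR). The median log2 fold change of the tested receptors and partners was −2.75, or −2.07 with Csf2rb and Csf2rb2 at their bounds, against 0.00 for all genes.

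Csf1r, Csf2ra and Csf2rb are also transcripts of macrophages, and macrophage markers moved with them. The list of 15 macrophage markers includes Csf1r itself, so it is not separate from the receptors. Of the 15, 6 were tested, Csf1r among them, and all 6 were lower by the adjusted p (20.0% of all genes). Past the 2-fold limit too were 5, Csf1r included (7.78% of all genes). The summed level of the list fell from between 49.8 and 53.2 CPM alone to between 8.60 and 10.6 CPM in coculture. Adgre1, which encodes the macrophage antigen F4/80, had 71, 47 and 55 counts alone and 0 in each cocultured library (at least 19.6-fold lower), and Lyz2 fell by 3.05 on the log2 scale (± 0.127 SE, adjusted p = 2.07e-07 by edgeR). In coculture 7 of the 15 macrophage markers were at 0. Of these, C1qa, C1qb, C1qc, Tyrobp and Fcer1g were not tested and had at most 11 counts in any lone library. The part of these cells in the receptor values was not tested, and in bulk RNA fewer cells of a type and less RNA per cell cannot be told apart. The fibroblast markers Col1a1, Col1a2, Pdgfra, Pdgfrb and Vim were present in every library, but the summed level of the 9 listed was lower in coculture. That sum was 34111 to 36000 CPM alone and 14244 to 15948 CPM in coculture. Past both limits 4 were lower, Col1a1, Col1a2, Col3a1 and Lum (7.78% of all genes), and 1, Dcn, was higher (3.87% of all genes). By the adjusted p, 8 of 9 fibroblast markers were lower (20.0% of all genes) and 1, Dcn, higher (17.1% of all genes). Among them Pdgfrb lost its call in 6 of 15 alternatives, including without any 1 lone library (edgeR adjusted p up to 0.0988). The lowest of them, Lum, had at least 38 counts in every library. Neutrophil and mast cell markers, which would mark target cells of Csf3 and Kitl, summed to at most 1.02 and 0.395 CPM in any library. These lists include the receptors Csf3r and Kit. Of 5 endothelial markers 2 were tested, and Kdr was at least 23.5-fold lower, while Pecam1 had a log2 fold change of 0.10 (edgeR adjusted p = 0.862). Of 6 epithelial markers only Krt18 was tested (−0.40, adjusted p = 0.441).

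Other haematopoietic factors were compared from a list. Of 10, 6 were tested, 2 of them higher and 2 lower past both limits, and 3 higher and 2 lower by the adjusted p alone. Among all genes tested, 11.6% were past both limits and 37.1% past the adjusted p alone, in either direction. Il11, an interleukin-6 family factor that acts on megakaryocyte progenitors among others, increased from 63.4 ± 1.32 to 231 ± 25.1 CPM (± SD, n = 3 per group; log2 change 1.87 ± 0.085 SE, adjusted p = 3.59e-07 by edgeR). Lif, another member of that family, increased from 297 ± 2.44 to 855 ± 26.7 CPM (± SD, n = 3 per group; log2 change 1.52 ± 0.053 SE, adjusted p = 8.71e-08 by edgeR). Il6 rose by 0.37 (± 0.082 SE, adjusted p = 0.00694 by edgeR), within the 2-fold limit. Cxcl12, which retains stem cells in the marrow, had 2317, 2274 and 2118 counts alone and 1106, 1034 and 1078 in coculture (log2 change −1.13 ± 0.056 SE, adjusted p = 5.76e-07 by edgeR). Il15 had a log2 fold change of −1.02 (± 0.292 SE, adjusted p = 0.0225 by edgeR). It lost the adjusted p in 6 of 15 alternatives, with 0.0602 by DESeq2 and up to 0.0750 with 1 library left out (any library but cocultured replicate 3), and was past both limits in neither these nor 3 others. Il7 did not pass the test (0.07, edgeR adjusted p = 0.808). Il3, Il5, Thpo and Epo had too few counts to test, and Il3 had none in any library.

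Csf1, Kitl and Flt3l are made as membrane-anchored proteins that proteases can release, so transcripts of the release machinery were examined. All 6 genes of that list were tested, with 2 higher and 2 lower by the adjusted p and 1 in each direction past the 2-fold limit. The shares of all genes tested were 37.1% by the adjusted p and 11.6% past both limits, in either direction. Timp3, an inhibitor of the sheddase Adam17, fell from 599 ± 8.35 to 93.1 ± 7.20 CPM (± SD, n = 3 per group; log2 change −2.69 ± 0.071 SE, adjusted p = 2.76e-08 by edgeR). Rhbdf2, a cofactor that matures Adam17, rose from 38.1 ± 4.01 to 84.3 ± 8.34 CPM (± SD, n = 3 per group; log2 change 1.15 ± 0.105 SE, adjusted p = 3.45e-05 by edgeR), and Mmp9, which can release Kitl, rose by 0.96 (± 0.075 SE, adjusted p = 1.16e-05 by edgeR). Adam17 itself fell by 0.48 (± 0.067 SE, adjusted p = 0.000510 by edgeR). Adam10 (−0.09, adjusted p = 0.257) and Rhbdf1 (−0.24, adjusted p = 0.0974) did not pass the test. Neither protein nor its release was measured.

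Among 8 genes of transcription factors known to act on these promoters, none was past both limits by edgeR or by DESeq2. By the adjusted p, 3 were higher and none lower (3 also at an unadjusted p below 0.05). Of all genes tested, 37.1% passed the adjusted p in either direction and 11.6% both limits. Nfkb1, which encodes the NF-κB subunit p50, had 2298, 2330 and 2152 counts alone and 4629, 4638 and 4959 in coculture. Its log2 fold change was 0.996 (± 0.059 SE, adjusted p = 1.85e-06 by edgeR), at the edge of the 2-fold limit. Nfkb2 rose by 0.27 (± 0.065 SE, adjusted p = 0.0107 by edgeR) and Cebpd by 0.41 (± 0.136 SE, adjusted p = 0.0404 by edgeR). The call of Nfkb2 was lost without lone replicate 3 (edgeR adjusted p = 0.0516), and that of Cebpd without lone replicate 1 or 2 or cocultured replicate 2 or 3 (up to 0.135). Rela, Rel, Cebpb, Nfkbiz and Ets1 did not pass the test, with log2 fold changes between −0.08 and 0.15. Ets1 varied from 249 to 825 counts in lone libraries and from 347 to 871 in cocultured ones.

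Regulators of mRNA stability, several of which bind AU-rich elements, were mixed. All 9 were tested, with 2 higher and 3 lower by the adjusted p and 1 in each direction past the 2-fold limit. Beside them, 37.1% of all genes tested passed the adjusted p in either direction and 11.6% both limits. Zc3h12a (Regnase-1), a nuclease that degrades cytokine transcripts, rose from 121 ± 2.16 to 262 ± 6.05 CPM (± SD, n = 3 per group; log2 change 1.11 ± 0.056 SE, adjusted p = 6.78e-07 by edgeR). Arid5a, which protects such transcripts, fell from 33.5 ± 6.01 to 12.1 ± 4.58 CPM (± SD, n = 3 per group; log2 change −1.47 ± 0.262 SE, adjusted p = 0.00205 by edgeR). Elavl1 (HuR), a stabiliser, rose by 0.28, while Zfp36l2 fell by 0.42 and Hnrnpd by 0.46 (edgeR adjusted p = 0.00796, 0.00341 and 0.00498). Zfp36, the best known decay factor of Csf2 mRNA, had a log2 fold change of −0.12 (adjusted p = 0.406). Of the 293 tested genes whose 3′ UTR held at least 3 pentamers in 30 bases, Csf2 and Csf3 included, 8.53% were higher and 8.19% lower past both limits, beside 3.8% and 7.91% of all 11469 genes with a 3′ UTR, and their median log2 fold change was 0.07 against 0.01.

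**Figure D4:**
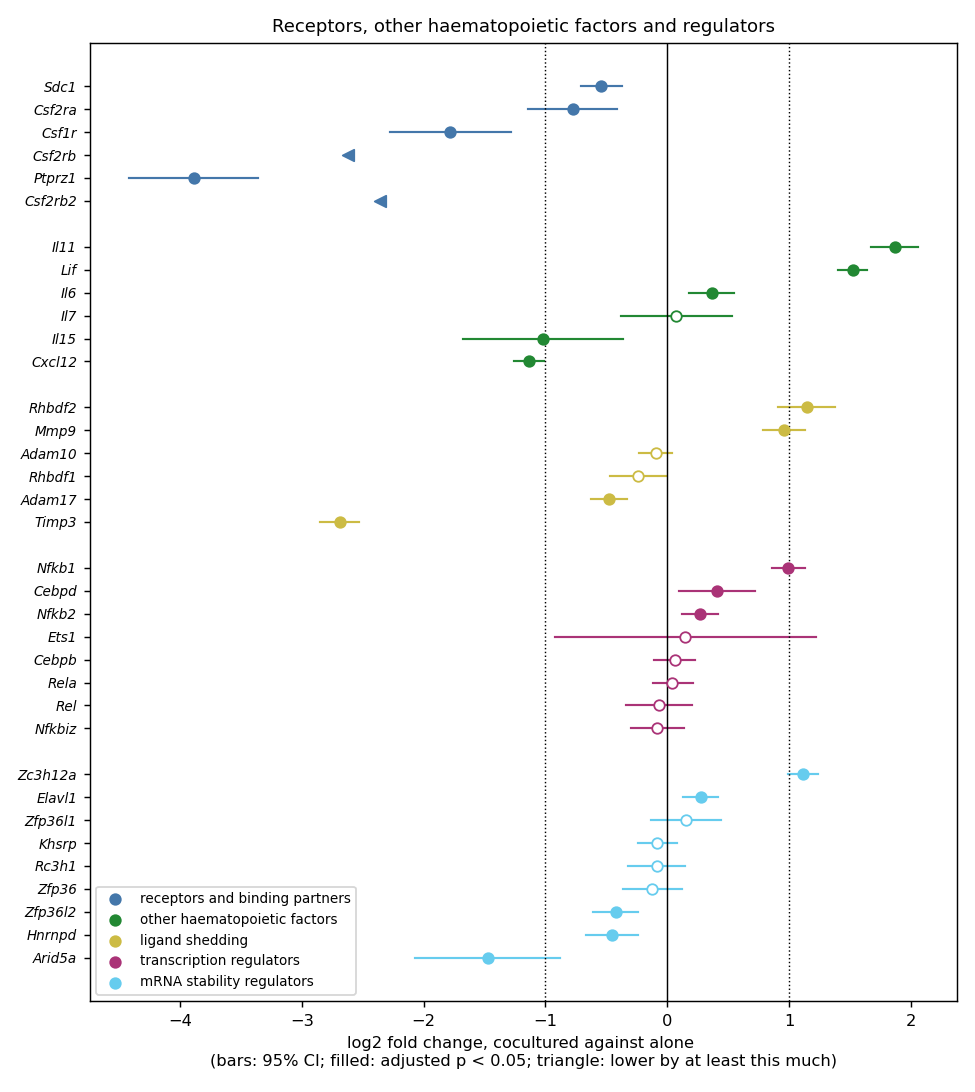
Points give the log2 fold change (horizontal axis, cocultured against alone) of the tested receptors, haematopoietic factors, shedding genes and regulators by edgeR, with 95% confidence intervals, filled where the adjusted p is below 0.05. Triangles mark Csf2rb and Csf2rb2 at their lower bounds, all 6 receptors and partners lie left of 0, and Il11, Lif, Rhbdf2 and Zc3h12a lie right of the dotted 2-fold limit.

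The genes whose levels followed each member most closely were found by Pearson's r of log2 CPM over the 6 libraries, among tested genes with a mean of at least 100 counts. For Csf1 they were Tmem200a (r = 0.9997), Epb41l3 (0.9993) and Flt1 (0.9991), with log2 fold changes of 1.3, 0.87 and 1.31. For Csf2 they were Ehbp1l1 (r = 0.9983), Fbxo22 (0.9978) and Dmtn (0.9957), which changed far less than Csf2, by 0.33, 0.58 and 0.66. Csf3 was followed by 3300005D01Rik (r = 0.9977), Prosc (0.9940) and Pink1 (0.9940), and Il34 by Glud1 (0.9972), Arhgap31 (0.9966) and Steap2 (0.9958). Kitl was followed by Ptgs2os2 (r = 0.9990; 260, 244 and 202 counts alone and 949, 738 and 1070 in coculture), Pik3r1 (0.9989) and Slc20a1 (0.9981), and Flt3l by Tubb4b (0.9990), Tubb6 (0.9989) and Rnaset2b (0.9987), all lower in coculture. No gene was named for more than 1 member. The libraries share the group difference, so with 6 points a gene that differs between the groups tends to a high r.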

How the data were processed

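RNA of primary mouse renal fibroblasts, alone or cocultured with Th17 cells, was sequenced by the study on an Illumina NovaSeq. Per the labels and methods, quality filtering by the authors used Seqtk, alignment used HISAT2 2.0.4, and the deposited fragment count per gene came from StringTie 1.3.3b. The submitters' processing notes name build mm10 (GRCm38). The authors also deposited FPKM, the count scaled to gene length and library size. Strand use in counting was not given in the sources used here. Library totals were 12050529 to 13209581 counts. Confidence intervals come from the edgeR fit and include the spread between libraries, whereas floors (3 counts) cover counting error only. Libraries of a group were no copies of each other, with a mean chi-square per gene of at least 6.07, where counting noise alone gives about 1.

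Groups came from titles. Counts were tested in R 4.3.3 with edgeR 4.0.16 (filterByExpr with minimum count 10, TMM, glmQLFit, glmQLFTest, Benjamini-Hochberg over 13088 genes). The SE is the log2 fold change divided by the square root of F. Alternatives used DESeq2 1.42.0, limma 3.58.1 on log2(FPKM + 1) or log2(FPKM + 0.1), other scalings and filters, each library left out, and a replicate block. Tests were checked on simulated counts. Named genes are the members, gene lists and, for each member, the 3 genes of at least 100 mean counts with the highest Pearson r. Members and lists were chosen with earlier results of these data known. A symbol on several rows was read from the row with most counts. Bounds take 3 counts per library. The sequences are those of RefSeq and GENCODE M21. Scripts used Python 3.11.15, pandas 2.3.3, scipy 1.17.1 and matplotlib 3.10.9.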

Additional observations from a re-analysis of the deposited data

How the results depend on the processing

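Csf1, Csf2, Csf3, Kitl and Flt3l kept their direction and an adjusted p below 0.05 under each of 15 alternatives. Log2 fold changes ranged from 0.97 to 1.07 for Csf1, from 1.93 to 2.45 for Csf2, from 1.12 to 1.52 for Csf3, from 1.28 to 1.6 for Kitl and from −0.80 to −0.58 for Flt3l. The number of members past both limits was 4, or 3 in the 3 fits without lone replicate 1, cocultured replicate 1 or cocultured replicate 2, which put Csf1 under 2-fold. Il34 kept its direction but lost its call in 9 of 15 alternatives, with a log2 fold change of 0.83 with DESeq2, 0.82 without a filter on low counts, 0.82 with the replicate block (adjusted p = 0.0829), and 0.74 to 0.89 when 1 library was left out. Same-numbered libraries did not deviate together (r from −0.0256 to 0.0157 between numbers 1, 2 and 3 of the groups). With 3 libraries per group this cannot show whether same-numbered libraries had a common source. The replicate block changed the call of no member other than Il34. The difference in the log2 ratio of Csf1 to Il34 depended on the pseudocount. It was 0.81 with a pseudocount of 1 and 0.23 on CPM. Genes past both limits numbered 626 with limma on log2(FPKM + 1), whose pseudocount shrinks low genes, 791 with glmTreat and 4856 with no fold limit, against 1524. The receptors and partners past both limits were 2 when at least 10 counts were required in every library, which tests fewer genes, and 1 with limma on log2(FPKM + 1). The same limma fit gave 2 other haematopoietic factors, against 4, and 1 mRNA stability regulator, against 2. The other haematopoietic factors numbered 3 with DESeq2, library size only, limma on log2(FPKM + 0.1) and each left-out library but cocultured replicate 3, and Il15 was the one lost in these fits. Of the transcription regulators 1 passed both limits with library size only, with upper quartile factors, with at least 10 counts in every library and with limma on log2(FPKM + 0.1), and between 0 and 1 when a library was left out (1 without lone replicate 2 or cocultured replicate 1).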
